A study of Mus musculus with 4 samples.

Results

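Interferon-stimulated genes are the transcripts that cells switch on when they sense interferon. The 39 genes described here were taken by symbol from a table of 54149 genes: all 39 were found, and 29 of them averaged 1 FPKM or more over the 4 libraries and could be tested. FPKM counts sequenced fragments of a gene per kilobase of its length, scaled by the library's total. They were measured by RNA sequencing in livers of adult females, whose background was C57BL/6 x 129S4/SvJae. The compared groups were liver-specific Utx KO mice and age- and sex-matched WT mice, with 2 libraries each, and each library was a pool of RNA from 2 mice. The deleted gene Utx appears under the symbol Kdm6a, and its product is a histone demethylase that acts on H3K27.

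Mice of both genotypes had been fasted for 16 h and injected intraperitoneally with 300 mg/kg acetaminophen (APAP), which injures hepatocytes at high dose. No group without the drug is in the comparison, so a response to acetaminophen itself cannot be measured. The time between dosing and tissue collection, and the driver that restricts the deletion to liver, are not stated in the labels. Depth, as reads recovered from the FPKM, was 17804730 and 16330451 in the KO pools and 16580979 and 16669038 in the WT pools. Kdm6a was at 2.20 and 2.12 FPKM in the KO pools and at 3.40 and 3.85 FPKM in the WT pools (log2 fold change -0.63, SE 0.13, limma adjusted p = 0.0715, and 0.0327 with limma voom), lower in both KO pools but not lost. With 1 value for the whole gene the loss of an exon would not be seen, and cells other than hepatocytes also contribute to liver RNA. Gene models overlap another model for 16 of the 39 genes, and a protein-coding one for 9, of which 4 overlap it on the same strand. Reads in these overlaps cannot be told apart here. Strand marking is not stated, and on the same strand it would not separate them.

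Type I interferons signal through the receptor IFNAR and the kinases JAK1 and TYK2 to a complex that holds STAT2 and IRF9 and binds the interferon-stimulated response element (ISRE) in DNA. Interferon-gamma signals through IFNGR, JAK1 and JAK2 to factors that bind the gamma-activated sequence (GAS) and also raise IRF1. The induced genes encode sensors of viral RNA, enzymes that block viral replication, GTPases that attack vacuoles of intracellular pathogens, and the machinery that loads peptides for T cells. In liver, hepatocytes and Kupffer cells (the resident macrophages) both respond to interferon.

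No interferon-stimulated gene passed the test: 0 of 29 had a limma adjusted p under 0.05, against 4.74% of all 11900 genes tested. At an unadjusted p under 0.05 there were 10 of 29, or 34.5%, against 27.1% of all genes. Of these 10, Igtp, Gbp7, Irgm2, Ddx58, Dhx58, Tap1, Stat2 and Psmb9 were on the higher side in KO (8 of 29, against 12.7% of all genes), and Mx2 and Iigp1 on the lower side (2 of 29, against 14.4%). On recovered reads, limma voom called 2 members, Igtp and Gbp7, both higher in KO, against 3.24% of all genes called higher. With limma on protein-coding genes alone the called members were again Igtp and Gbp7, against 4.01% of those genes called higher. The list did not move one way: 19 fitted log2 fold changes were above 0 and 10 below, running from -0.83 for Iigp1 to 1.03 for Igtp, with a median of 0.14 beside 0.01 over all genes tested. The median was -0.0024 without KO replicate 2 and 0.35 without KO replicate 1.

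The values of KO and WT pools did not overlap for 20 of the 29 tested genes. In 13 of these (44.8% of the tested members) both KO pools were higher, against 31.6% of all genes, and in 7 (24.1%) both were lower, against 29.9% of all genes. Over all 11900 genes, 190 were called higher and 374 lower in KO. With each library's FPKM rescaled to the sum of its listed reads, the split was 211 higher and 255 lower, the median over all genes was 0.07 and that of the members 0.20.

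**Figure D1:**
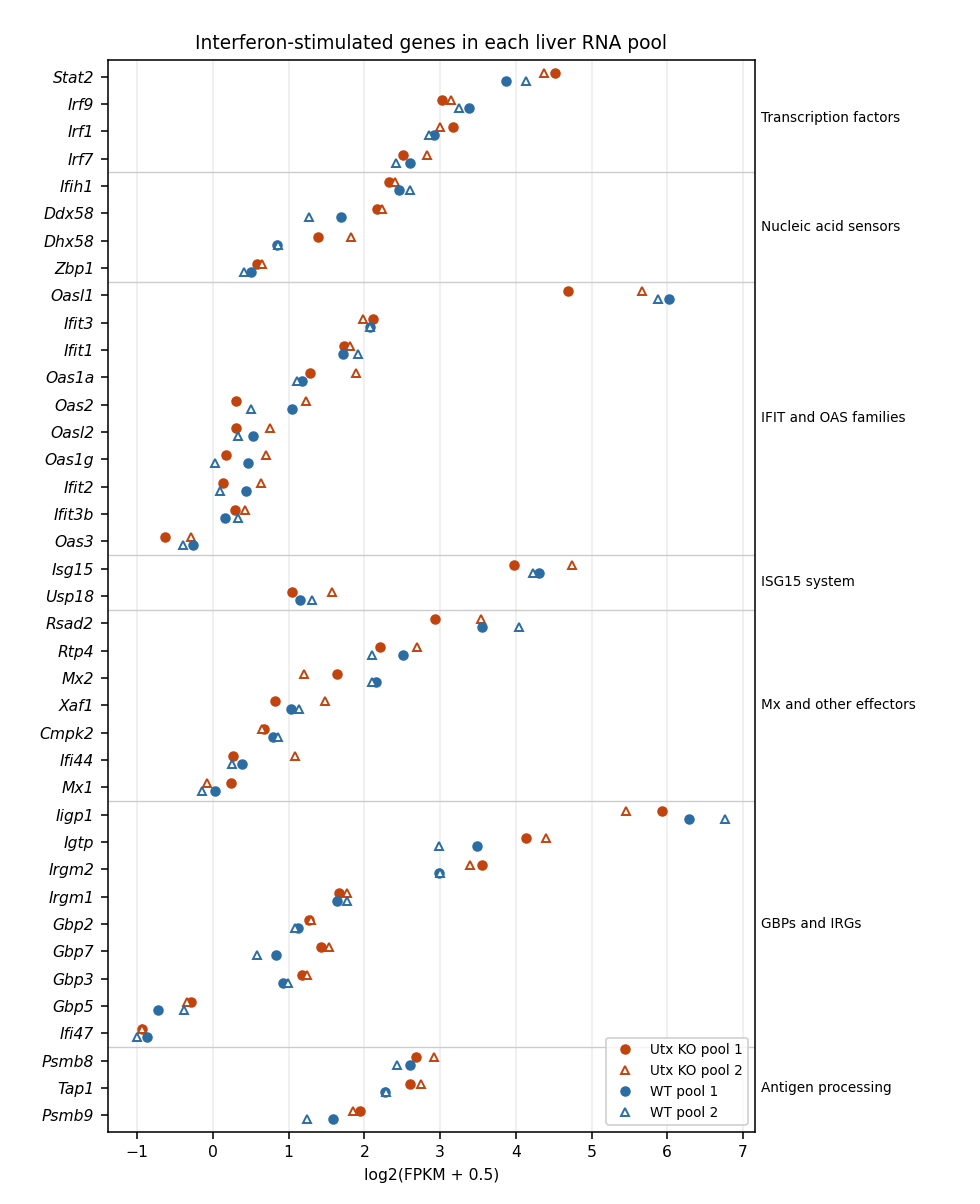
Level of each of the 39 interferon-stimulated genes, as log2(FPKM + 0.5), in the 2 Utx KO pools (orange) and the 2 WT pools (blue), grouped by role and ordered by mean level; circles are pool 1 and open triangles pool 2. Iigp1, Oasl1 and Isg15 are the highest members, and for Oasl1 and Isg15 the KO pools stand further apart than the WT pools.

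Among the factors that relay interferon signals to DNA, Stat2 was the most abundant. Stat2, a subunit of the type I complex, had 22.4 and 20.3 FPKM in the KO pools, against 14.2 and 17.1 FPKM in the WT pools. Both KO pools were above both WT pools, but the difference did not pass (log2 fold change 0.44, SE 0.14, limma adjusted p = 0.135). Irf9, the DNA-binding subunit of that complex, was at 7.66 and 8.31 FPKM in KO pools and 9.91 and 9.06 FPKM in WT pools (adjusted p = 0.258), so within 1 complex the KO pools were on opposite sides of the WT pools for the 2 subunits. Irf1, an activator of interferon-gamma targets, was at 8.51 and 7.50 FPKM in KO and 7.07 and 6.75 FPKM in WT pools (adjusted p = 0.335). Irf7, which amplifies type I interferon production, overlapped between groups, with 5.19 and 6.596 FPKM in KO pools and 5.56 and 4.85 FPKM in WT pools (adjusted p = 0.561).

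Of the nucleic acid sensors, Ddx58 and Dhx58 were on the higher side in KO and Ifih1 was not. Ddx58, which encodes the RNA sensor RIG-I, was at 4.003 and 4.19 FPKM in the KO pools and at 2.73 and 1.91 FPKM in the WT pools. Dhx58, whose product LGP2 regulates the other RNA sensors of its family, was at 2.13 and 3.03 FPKM in the KO pools and at 1.30 and 1.32 FPKM in the WT pools. In both genes the groups were apart, with log2 fold changes of 0.72 (SE 0.18, limma adjusted p = 0.0980) and 0.75 (SE 0.20, adjusted p = 0.107). Ifih1, which encodes MDA5, a sensor of long double-stranded RNA, was at 4.50 and 4.78 FPKM in KO pools and 4.98 and 5.55 FPKM in WT pools (adjusted p = 0.412). Zbp1, a sensor of left-handed nucleic acids, averaged 0.957 FPKM over the 4 libraries and was not tested.

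The IFIT proteins, which bind viral RNA, and the OAS proteins, which sense double-stranded RNA and activate RNase L, had 10 members in the list, of which 5 could be tested and 0 passed. Oasl1, an OAS-like protein that in mice limits translation of Irf7, was the most abundant, with 25.3 and 50.4 FPKM in the KO pools, against 64.5 and 58.5 FPKM in the WT pools. KO replicate 1 was well below the other 3 pools, and the log2 fold change of -0.77 had an SE of 0.34 (limma adjusted p = 0.230). It was -0.28 without KO replicate 1 and -1.26 without KO replicate 2 (adjusted p = 0.504 and 0.0556). Oas1a was at 1.93 and 3.22 FPKM in KO pools and 1.76 and 1.65 FPKM in WT pools (adjusted p = 0.307), and Ifit1 was at 2.83 and 3.01 FPKM in KO pools and 2.78 and 3.28 FPKM in WT pools (adjusted p = 0.864). For Ifit1 the 95% confidence interval of the log2 fold change ran from -0.41 to 0.32. Ifit3 was nearly level across the 4 pools, between 3.44 and 3.83 FPKM. Ifit2, Ifit3b, Oasl2, Oas1g and Oas3 averaged between 0.265 and 0.904 FPKM and were not tested. Ifit3 and Ifit3b, like Oas1a and Oas1g, are near copies, so the division of reads within each pair is uncertain.

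Isg15, a ubiquitin-like protein that is joined to other proteins, and Usp18, the protease that removes it and also blocks the type I receptor, did not separate the genotypes. Isg15 was at 15.2 and 26.2 FPKM in the KO pools and at 19.2 and 18.3 FPKM in the WT pools (log2 fold change 0.09, SE 0.27, limma adjusted p = 0.857). Usp18 was at 1.57 and 2.49 FPKM in KO pools and 1.72 and 1.98 FPKM in WT pools (adjusted p = 0.843). In both genes the WT values lay between the KO values, and without KO replicate 2 both fitted differences were below 0 (-0.29 and -0.18).

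Of the other antiviral effectors, 3 of 5 tested were lower in both KO pools than in both WT pools, against 29.9% of all genes. None of the 5 passed. Mx2, a dynamin-like GTPase, was at 2.61 and 1.79 FPKM in the KO pools and at 3.94 and 3.80 FPKM in the WT pools (log2 fold change -0.71, SE 0.19, limma adjusted p = 0.103). The deposited table lists Mx2 as a polymorphic pseudogene. Rsad2, which encodes viperin, an enzyme that makes a chain-terminating nucleotide, was at 7.12 and 11.2 FPKM in KO pools and 11.3 and 16.0 FPKM in WT pools (adjusted p = 0.266). Cmpk2, a mitochondrial nucleotide kinase that lies next to Rsad2 on chromosome 12, was at 1.09 and 1.06 FPKM in KO and 1.24 and 1.31 FPKM in WT pools (adjusted p = 0.599). Rtp4 and Xaf1 overlapped between groups, with log2 fold changes of 0.14 and 0.06, and Mx1 and Ifi44 averaged 0.511 and 0.957 FPKM and were not tested.

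The GTPases held the members at both ends of the range. Guanylate-binding proteins and immunity-related GTPases are strongly induced by interferon-gamma and act on vacuoles that hold pathogens. Igtp, also called Irgm3, had 17.1 and 20.6 FPKM in the KO pools, against 10.8 and 7.42 FPKM in the WT pools. It was the largest difference on the higher side, with a log2 fold change of 1.03 (SE 0.21, 95% confidence interval 0.47 to 1.59, limma adjusted p = 0.0687). Its adjusted p was 0.0382 with limma voom and ran from 0.0382 to 0.171 over 16 alternatives. Irgm2 was at 11.2 and 10.01 FPKM in the KO pools and at 7.44 and 7.50 FPKM in the WT pools (log2 fold change 0.48, SE 0.11, adjusted p = 0.0827). Gbp7 was at 2.18 and 2.40 FPKM in the KO pools and at 1.29 and 0.997 FPKM in the WT pools (log2 fold change 0.77, SE 0.18, limma adjusted p = 0.0858). With limma voom its adjusted p was 0.0434, with a range from 0.0434 to 0.243 over the 15 alternatives that tested it.

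Iigp1, which encodes IRGA6, an effector GTPase of the same family, stood on the other side and was the most abundant of the 39 genes. It was at 60.6 and 43.5 FPKM in the KO pools and at 77.7 and 108 FPKM in the WT pools (log2 fold change -0.83, SE 0.24, limma adjusted p = 0.121). Irgm1, a regulator of the effector GTPases, was between 2.62 and 2.92 FPKM in all 4 pools (log2 fold change 0.02, 95% confidence interval -0.34 to 0.37). Gbp2 and Gbp3 had both KO pools above both WT pools by log2 fold changes of 0.18 and 0.26, far from the threshold (limma adjusted p = 0.478 and 0.364). Gbp5 averaged 0.247 FPKM, and Ifi47 had 1 and 1 reads in the KO pools and 2 and 0 in the WT pools. The Ifi47 model is overlapped over its whole length, 20388 bases, by that of Olfr56 on the same strand. Olfr56 had 2 and 3 reads in the KO pools and 4 and 4 in the WT pools. How reads in this stretch were assigned is not known, so the level of Ifi47 is uncertain. In the deposited table the models of Igtp (GRCm38 chromosome 11, 58199556 to 58207591, plus strand) and Irgm2 (58199618 to 58222782, plus strand) overlap by 7974 bases, so how the reads were split between these 2 genes is uncertain.

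**Figure D2:**
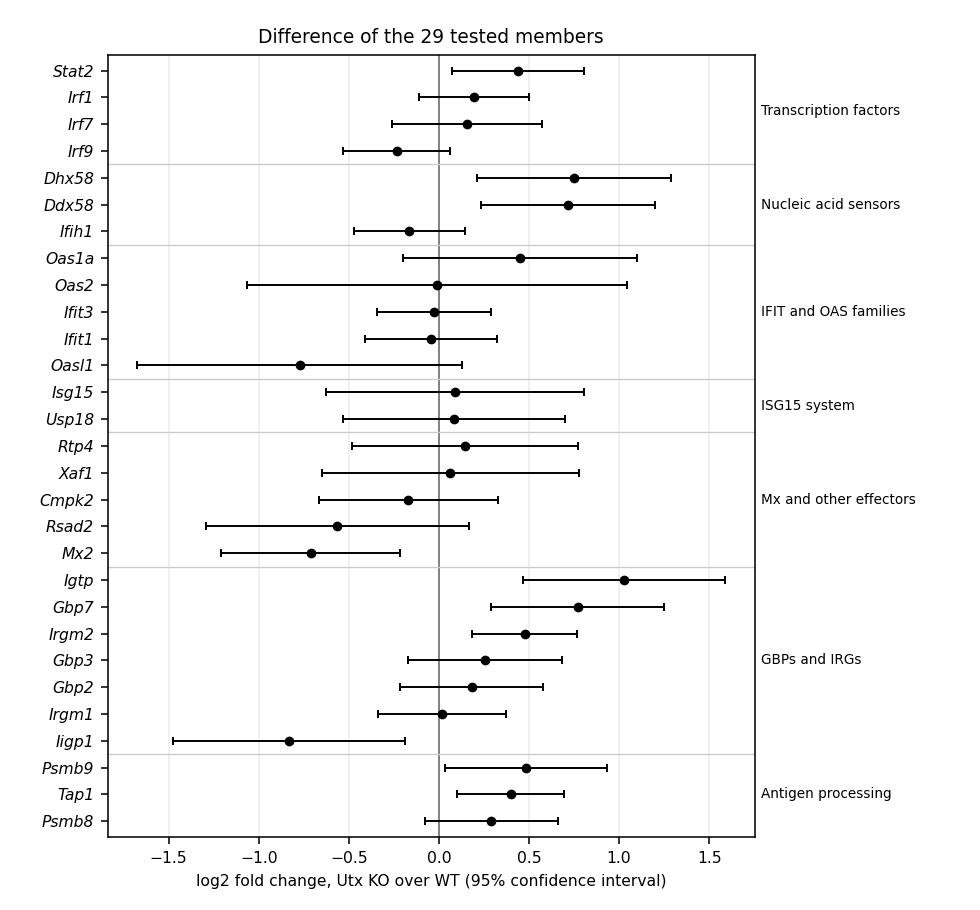
Log2 fold change of the 29 tested members, Utx KO over WT, on the log2(FPKM + 0.5) scale, with 95% confidence intervals from limma, grouped by role. The intervals of 10 genes exclude 0 before adjustment; Igtp is at 1.03 and Iigp1 at -0.83.

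Upstream sequence is shown for the members on the higher side with the smallest p, because Igtp, Irgm2 and Gbp7 each carry both kinds of interferon element, and for a pair of classic type I targets that did not separate the genotypes. Each line holds the 200 bases before the RefSeq start on GRCm38.p6, with matches to the ISRE letters (GAAA, any 2 bases, GAAA) or the GAS letters (TTC, any 3 bases, GAA), on either strand, in capitals. The stretches are chr11:58199356-58199555 (plus strand) for Igtp, chr11:58214777-58214976 (plus) for Irgm2, chr3:142530136-142530335 (plus) for Gbp7, chr4:156200819-156201018 (minus) for Isg15 and chr19:34640689-34640888 (plus) for Ifit1.
Igtp: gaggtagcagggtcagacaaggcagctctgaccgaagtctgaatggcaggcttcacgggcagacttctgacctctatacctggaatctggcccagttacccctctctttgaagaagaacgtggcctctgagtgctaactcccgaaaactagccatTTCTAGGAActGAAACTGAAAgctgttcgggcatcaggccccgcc
Irgm2: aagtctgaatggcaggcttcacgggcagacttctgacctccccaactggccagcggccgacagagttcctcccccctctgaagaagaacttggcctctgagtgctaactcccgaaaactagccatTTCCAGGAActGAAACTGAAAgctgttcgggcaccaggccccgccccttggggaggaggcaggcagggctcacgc
Gbp7: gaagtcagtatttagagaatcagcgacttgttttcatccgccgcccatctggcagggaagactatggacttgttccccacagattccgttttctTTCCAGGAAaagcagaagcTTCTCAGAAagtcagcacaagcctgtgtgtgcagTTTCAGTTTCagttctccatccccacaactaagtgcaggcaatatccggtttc
Isg15: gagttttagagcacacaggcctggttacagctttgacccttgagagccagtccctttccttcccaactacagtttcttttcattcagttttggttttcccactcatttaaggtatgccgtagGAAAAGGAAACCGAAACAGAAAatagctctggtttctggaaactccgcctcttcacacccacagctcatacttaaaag
Ifit1: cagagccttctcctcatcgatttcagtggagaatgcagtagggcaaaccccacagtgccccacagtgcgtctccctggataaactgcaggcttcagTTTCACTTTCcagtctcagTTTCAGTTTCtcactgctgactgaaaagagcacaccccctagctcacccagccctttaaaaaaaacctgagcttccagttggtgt

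In Igtp the first base of the GAS match lies 45 bases before the start and that of the ISRE match 34 bases before it. In Irgm2 the same 2 elements lie 75 and 64 bases before the RefSeq start, so the distance between them is 11 bases in both genes, and the printed stretches of the 2 neighbours share an unbroken run of 40 bases. RefSeq starts Irgm2 well downstream of the start that the deposited table lists. Gbp7 has 2 GAS matches and 1 ISRE match, Isg15 has 3 overlapping ISRE matches and no GAS match in its 300-base window, and Ifit1 has 2 ISRE matches. RefSeq promoter windows (250 bases before to 50 after the start) were matched for 31 of the 39 members. Of these, 18 held the ISRE letters, against 3.99% of all 27025 genes with a window, and 8 held the GAS letters, against 9.55%. Overlapping matches were counted separately. Both kinds of element were also matched in Oas1a and in Gbp5, which was not tested. Like Igtp, Irgm2 and Gbp7, Oas1a was higher in both KO pools and did not pass (log2 fold change 0.45, limma adjusted p = 0.307). Ddx58 and Stat2, on the higher side in KO, had an ISRE match and no GAS match. Igtp, Irgm2 and Gbp7 were printed because they carry both kinds, so the printed genes cannot show whether elements set the higher members apart. A match describes letters only and says nothing of which factor was bound.

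The 3 antigen-processing members were each higher in both KO pools than in both WT pools, against 31.6% of all genes. None of the 3 passed. Tap1, a subunit of the transporter that carries peptides into the endoplasmic reticulum, was at 5.58 and 6.20 FPKM in the KO pools and at 4.32 and 4.37 FPKM in the WT pools (log2 fold change 0.40, SE 0.11, limma adjusted p = 0.113). Psmb9 and Psmb8 encode subunits of the immunoproteasome, which cuts proteins into such peptides. Psmb9 was at 3.33 and 3.11 FPKM in KO pools and 2.49 and 1.86 FPKM in WT pools (adjusted p = 0.162), and Psmb8 at 5.93 and 7.10 FPKM in KO pools and 5.56 and 4.88 FPKM in WT pools (adjusted p = 0.260). Tap1 and Psmb9 are divergent neighbours on chromosome 17 whose models overlap by 212 bases on opposite strands.

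Several members differed more between the 2 KO pools than between genotypes. KO replicate 2 was above KO replicate 1 in 29 of the 39 genes, among them 9 of the 10 IFIT and OAS genes, both members of the ISG15 system and all 4 sensors. Of the 29 tested members 21, or 72.4%, were higher in KO replicate 2, against 51.2% of all tested genes. Oas2 was at 0.731 FPKM in KO replicate 1 and 1.83 FPKM in KO replicate 2, beside 1.57 and 0.914 FPKM in the WT pools, and Ifi44 was at 0.705 and 1.63 FPKM beside 0.801 and 0.695 FPKM. In the WT pools, replicate 2 was above replicate 1 in 16 of the 39.

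Markers of Kupffer cells and macrophages differed between the same KO pools. All 11 markers were higher in KO replicate 2 than in KO replicate 1, and none of the 11 differed between genotypes at a limma adjusted p under 0.05 or at an unadjusted p under 0.05. In the WT pools, 1 of the 11 was higher in replicate 2 than in replicate 1. The summed level of all 11 was 253 and 409 FPKM in the KO pools and 419 and 331 FPKM in the WT pools. Of 9 tested neutrophil markers 4 fell and 0 rose, against 3.14% and 1.60% of all genes called lower and higher. The calls of S100a8 and S100a9 were lost under 4 of 16 alternatives each, and those of Mmp9 and Clec4d under 6 of 15 each. The 11 listed neutrophil markers summed to 40.6 and 36.9 FPKM in KO pools, against 121 and 185 FPKM in WT pools. Of the 2 too low to test, Camp had 7 and 13 reads in the KO pools and 2 and 0 in the WT pools. Ly6g had 1 and 2 reads in the KO pools and 0 and 5 in the WT pools. Of 6 tested markers of sinusoidal endothelium, the cells that line liver capillaries, 0 passed. An unadjusted limma p under 0.05 was reached by 3, all on the lower side in KO, against 14.4% of all genes. The summed level of the 6 was 46.3 and 48.1 FPKM in the KO pools, against 64.7 and 66.1 FPKM in the WT pools. Both KO pools were below both WT pools for 4 of the 6, against 29.9% of all genes. Clec4g and Kdr overlapped between groups, with log2 fold changes of 0.16 and 0.07. Markers of T and NK cells (9 genes), B cells (4) and plasmacytoid dendritic cells other than Ly6d (4 of 5) were at 1.08 FPKM or less in every pool, Ly6d was at 27.6 and 61.4 FPKM in KO pools and 157 and 72.7 FPKM in WT pools, and the plasmacytoid marker Siglech was at 0 in WT replicate 2. Hepatocyte markers were high throughout, with Alb, the albumin gene, at 29570 and 21955 FPKM in KO and 24995 and 29597 FPKM in WT pools. Of the 7 hepatocyte markers, 1 was higher in KO replicate 2 than in KO replicate 1. All 7 were higher in WT replicate 2 than in WT replicate 1. KO replicate 2 was also above KO replicate 1 for 8 of 9 T and NK cell, 4 of 4 B cell and 4 of 5 plasmacytoid markers. It was so for 4 of 6 endothelial, 3 of 5 monocyte and 4 of 11 neutrophil markers. In bulk liver, fewer cells of a type and less RNA per cell cannot be told apart. The part of these cells in the values above was not tested.

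**Figure D3:**
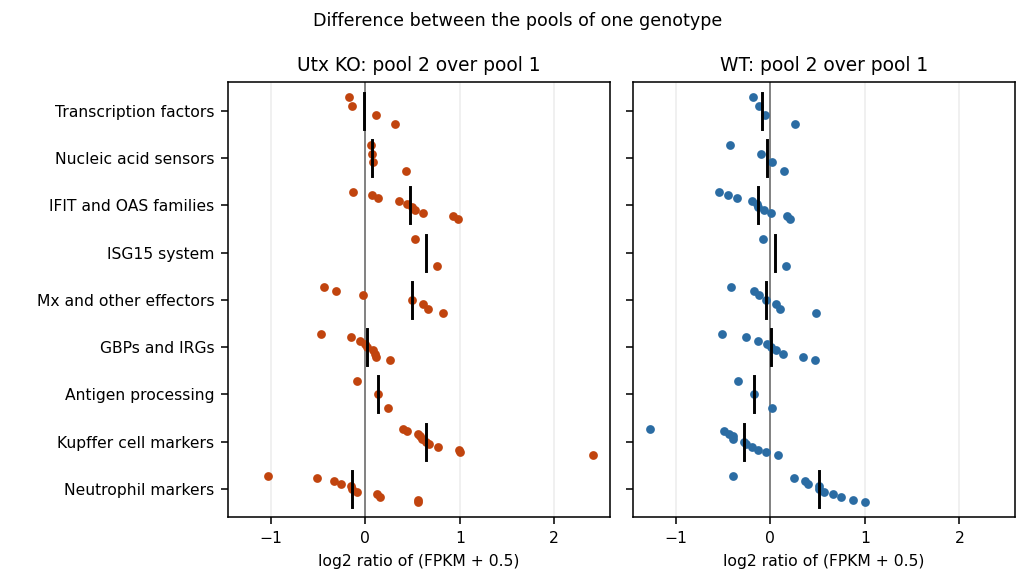
Log2 ratio of pool 2 over pool 1, from FPKM + 0.5, within Utx KO (left) and within WT (right), for the 39 members by role, 11 Kupffer cell and macrophage markers and 11 neutrophil markers; points are genes and black bars medians. In KO all 11 Kupffer cell markers and 9 of 10 IFIT and OAS genes lie above 0. In WT 1 of 11 Kupffer cell markers and 3 of 10 IFIT and OAS genes lie above 0.

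The interferons themselves were close to undetectable. Of 21 interferon genes, 18 had 0 reads in all 4 libraries, Ifnb1 and the listed alpha and lambda interferons among them. A count of 0 allows up to 3 reads per library, for counting error only. Ifng had 0 and 0 reads in the KO pools and 0 and 1 in the WT pools. Ifnk had 2 and 6 reads in the KO pools and 17 and 9 in the WT pools, and lies inside the model of Mob3b on the other strand, which had 261 to 371 reads per library. Ifnab had 0 and 1 reads in the KO pools and 11 and 3 in the WT pools.

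No tested interferon receptor gene passed: 0 of 5 had a limma adjusted p under 0.05 and 1, Ifngr1, an unadjusted p under 0.05. Ifnar1 was at 8.65 and 8.72 FPKM in KO pools and 8.16 and 9.73 FPKM in WT pools, and Ifnar2 at 12.9 and 10.9 FPKM in KO pools and 12.5 and 12.2 FPKM in WT pools. Their log2 fold changes were -0.03 (95% confidence interval -0.37 to 0.30) and -0.05 (-0.38 to 0.28), and each changed sign on rescaling to the listed reads. Ifngr1, the ligand-binding chain of the interferon-gamma receptor, was at 7.74 and 7.36 FPKM in KO pools and 10.3 and 11.9 FPKM in WT pools (log2 fold change -0.52, SE 0.12, limma adjusted p = 0.0825). Ifngr2, the accessory chain, was at 6.98 and 6.00 FPKM in KO and 5.05 and 6.30 FPKM in WT pools (adjusted p = 0.487).

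Of 8 tested genes of the JAK-STAT relay and its inhibitors, 2 fell, 0 rose and 6 did not pass, against 3.14% of all genes called lower and 1.60% called higher. Jak2, the kinase attached to the interferon-gamma receptor and to many cytokine receptors, fell to 4.95 and 5.71 FPKM in the KO pools, against 11.4 and 10.8 FPKM in the WT pools. Its log2 fold change was -0.99 (SE 0.12, limma adjusted p = 0.0335), and with the replicate number as a block the adjusted p was 0.0592. Fits without 1 library leave a group with a single pool, which is assumed to vary like the others, and they called 0 to 234 of all 11900 genes. In these fits the Jak2 log2 fold change stayed between -1.09 and -0.90, with adjusted p from 0.0587 to 0.114. Socs3, an inhibitor of JAK kinases that is induced mainly by STAT3, fell to 12.7 and 11.1 FPKM in the KO pools, against 32.1 and 33.7 FPKM in the WT pools (log2 fold change -1.44, SE 0.12, adjusted p = 0.0258). Without WT replicate 1, WT replicate 2 or KO replicate 1, where only 30, 0 and 5 genes in all were called, its adjusted p was 0.0642, 0.0643 and 0.0609, and over the 4 such fits the log2 fold change stayed between -1.53 and -1.34. Socs1, the other main inhibitor of interferon signalling, averaged 0.894 FPKM and was not tested; it had 8 and 21 reads in the KO pools and 84 and 59 reads in the WT pools.

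None of the 13 tested sensors, adaptors and kinases that lead to interferon production passed in the limma test, and 4 had an unadjusted p under 0.05, against 27.1% of all genes. The 2 with the smallest p were Irf5 and Mavs. Mavs, the mitochondrial adaptor of RIG-I and MDA5, was at 31.1 and 30.4 FPKM in the KO pools and at 19.3 and 21.8 FPKM in the WT pools (log2 fold change 0.57, SE 0.11, limma adjusted p = 0.0644). Its adjusted p was 0.0440 with limma voom, 0.0444 among protein-coding genes and 0.0491 with a minimum mean of 5 FPKM, and ran up to 0.236 over all alternatives. Irf5, a factor of inflammatory cytokine genes in macrophages, was at 3.05 and 4.26 FPKM in KO and 6.88 and 6.13 FPKM in WT pools (adjusted p = 0.0858).

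Among 41 further tested interferon-induced genes, 2 rose, 1 fell and 38 did not pass, against 1.60% and 3.14% of all genes called higher and lower. The median of their log2 fold changes was 0.16. An unadjusted limma p under 0.05 was reached by 10 on the higher side and 1 on the lower, against 12.7% and 14.4% of all genes. The genes that rose were neighbours on chromosome 16. Parp9, an ADP-ribosyltransferase, rose to 14.0 and 11.3 FPKM in the KO pools, against 6.13 and 6.42 FPKM in the WT pools (log2 fold change 0.95, SE 0.14, limma adjusted p = 0.0426). Dtx3l, the ubiquitin ligase that binds PARP9 and acts with it, rose to 10.04 and 9.16 FPKM in the KO pools, against 5.11 and 5.12 FPKM in the WT pools (log2 fold change 0.84, SE 0.11, adjusted p = 0.0362). Parp9 (GRCm38 chromosome 16, 35938470 to 35972605, plus strand) and Dtx3l (35926511 to 35939151, minus strand) run away from each other, and their models overlap by 682 bases. With the replicate number as a block both had an adjusted p of 0.0695, without a mean-variance trend 0.0610 and 0.0534, and without a filter on low values 0.120 and 0.103. When 1 library was left out the log2 fold changes stayed between 0.81 and 1.10 for Parp9 and between 0.78 and 0.91 for Dtx3l, with adjusted p from 0.0570 to 0.137. Ifi27l2b, a member of the Ifi27 family of small interferon-induced proteins, fell to 7.55 and 6.78 FPKM in the KO pools, against 20.8 and 21.9 FPKM in the WT pools (log2 fold change -1.52, SE 0.11, adjusted p = 0.0258). When 1 library was left out its log2 fold change stayed between -1.59 and -1.44, and the adjusted p was 0.0642, 0.0643 and 0.0605 without WT replicate 1, WT replicate 2 and KO replicate 1.

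Of 19 tested genes of antigen presentation and interferon-gamma responses, 0 passed in the limma test, 6 had an unadjusted p under 0.05, against 27.1% of all genes, and the median log2 fold change was -0.045. Psmb10, the third immunoproteasome subunit, was at 14.97 and 13.9 FPKM in the KO pools and at 9.33 and 8.24 FPKM in the WT pools (log2 fold change 0.69, SE 0.12, limma adjusted p = 0.0518). Its adjusted p was under 0.05 with limma voom (0.0416) and with 3 other choices of genes tested, and over all alternatives it ran from 0.0322 to 0.188. Cxcl10, a chemokine for T cells, was at 8.47 and 15.6 FPKM in the KO pools and at 61.1 and 165 FPKM in the WT pools. The KO pools were far below both WT pools, and the WT pools were far from each other, so the log2 fold change of -3.07 had an SE of 0.56 (limma adjusted p = 0.0562). With the replicate number as a block the adjusted p of Cxcl10 was 0.0259, and over all alternatives it ran from 0.0255 to 0.154. In the same KO pools the 9 tested neutrophil markers were lower, and their part in the values of Cxcl10 and Socs3 was not tested.

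**Figure D4:**
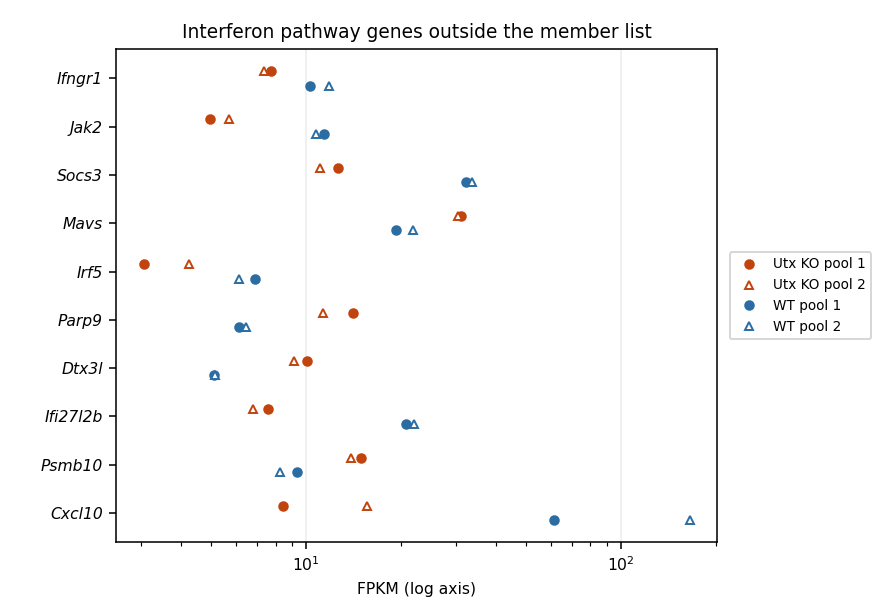
FPKM, on a log axis, of 10 interferon pathway genes outside the list of 39, in the 2 Utx KO pools (orange) and the 2 WT pools (blue); circles are pool 1 and open triangles pool 2. Jak2, Socs3 and Ifi27l2b fell and Parp9 and Dtx3l rose; for the other 5 genes the groups are apart but the adjusted p was above 0.05.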

How the data were processed

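Poly(A)-selected liver RNA was sequenced from 2 Utx KO and 2 WT pools. The authors deposited 1 table of FPKM values with 54149 gene rows, per the file headers. Per the submitters' processing notes, HISAT2 2.0.5 was used with mm10 (GRCm38.p6). The read counter and the annotation are not given in the sources used. Column names gave genotype and replicate, which placed each column with 1 sample.

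Whole reads were recovered: FPKM times gene length was a whole multiple of 1 step per library, within 0.01 read, in 100.0% of nonzero values. Replicate pools differed by a mean chi-square per gene of 26.2 in KO and 31.6 in WT, so neither was a copy of its replicate.

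The test was limma (version 3.58.1, R 4.3.3) with lmFit and trended eBayes on log2(FPKM + 0.5), over the 11900 genes that averaged 1 FPKM or more. Benjamini-Hochberg adjustment of the two-sided p-values ran over all 11900 genes, and an adjusted p under 0.05 was a call. Residual degrees of freedom were 2 and prior ones 2.59. Fold changes on this scale understate the change of low genes. On 20 simulated data sets of 11900 genes for the KO against WT comparison, with 200 changed genes and a dispersion of 0.0281, the test recovered 35.75% of 2-fold and 98.05% of 4-fold changes, and 13.6% of its calls were of unchanged genes.

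The members and gene lists were chosen with earlier results of these data known. Values in every pool are given for members past the threshold, the 3 members with the smallest p in each role, and Isg15, Irf7, Irf9, Stat2, Irf1 and Usp18; values of other members were added after they were seen. Of the 6 other interferon lists (136 genes), the text names members past the threshold or otherwise the 2 with the smallest p, and the receptors and the interferon genes. Socs1 and Kdm6a are outside that rule except as a low-level member and as the label check.

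Alternatives were 2 pseudocounts, 2 filters on low values, 2 scalings, no trend, the replicate number as a block, only protein-coding genes, limma voom with TMM scaling on the recovered reads, and leaving out each library. After the data had been seen 2 more were added: a minimum of 50 reads, and crossed pairing of the replicate numbers. The numbers were not treated as pairs in the main test, since the labels do not say that a number marks a shared litter or day. Promoter sequences are RefSeq's on GRCm38.p6. Figures were drawn with matplotlib 3.10.9.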

Additional observations from a re-analysis of the deposited data

How the results depend on the processing

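With limma, 0 interferon-stimulated genes passed the threshold. Over 16 alternatives the count was 2 with limma voom, 2 among protein-coding genes alone, 2 with a crossed pairing and 1 with a minimum of 50 reads. The crossed pairing called Igtp, higher in KO, and Iigp1, lower in KO, and the minimum of 50 reads called Gbp7. The count was 0 under the other 12, the replicate block included. At an unadjusted p under 0.05 it was between 5, of 12 members tested with a minimum mean of 5 FPKM, and 10, of 29 in the main test. In the main test 27.1% of all genes had an unadjusted p under 0.05. Leaving out each library gave counts from 0 to 0, in fits that called few genes of any kind, so this says nothing of stability. The members' median log2 fold change of 0.14 was 0.20 when rescaled to the listed reads, 0.14 with the replicate block, and from -0.0024 to 0.35 when a library was left out; the cause was not tested, other than that fewer samples enter the last fits.

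The number of all genes called, 564, was 1084 with limma voom, 1014 among protein-coding genes, 877 with at least 50 reads, 280 without a trend, 310 with the replicate block, 0 without a filter, and from 0 to 234 when a library was left out. Deviations of same-numbered KO and WT pools had a correlation of -0.14 over genes, and a crossed pairing, chosen after seeing the data, called 552 genes and 2 members. The block moved the calls of Jak2, Parp9, Dtx3l and Cxcl10 among the 35 genes followed and no other.

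Ifit1, Ifnar1 and Ifnar2 changed sign on rescaling to the listed reads, to 0.012, 0.026 and 0.011. When a library was left out, Ifit1 ran from -0.15 to 0.058, Usp18 from -0.18 to 0.35, Isg15 from -0.29 to 0.47, Irf7 from -0.0024 to 0.32, Ifnar1 from -0.15 to 0.086 and Ifnar2 from -0.17 to 0.067. The values of Oas1a (0.14 to 0.75), Rsad2 (-0.87 to -0.26), Ifngr2 (0.037 to 0.33), Irf1 (0.11 to 0.28), Ifih1 (-0.24 to -0.094), Psmb9 (0.31 to 0.66) and Psmb8 (0.17 to 0.41) also moved by over 1.5 times when a library was left out. So did that of Oasl1 (-1.26 to -0.28). Of 548 gene results, 491 kept direction and side of the threshold, 28 lost a call, 20 gained one and 9 changed sign. With 2 pools a group, the simulated test recovered 35.75% of 2-fold changes, averaged over genes of all tested levels. The simulation gave every gene the same dispersion, 0.0281, so recovery at the members' own levels and spreads is not known. Of the members, 10 were too low to test.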
